A study of Mus musculus with 5 samples.

Results

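S phase and DNA replication genes are the genes whose products license origins, unwind and copy DNA, supply nucleotides and repackage the copies. The list held 41 genes named by symbol. A gene was measured by the probe sets (groups of short probes against 1 transcript) whose only annotated symbol was that gene, and the brightest of them on average over all arrays stood for the gene. In all, 40 of the 41 genes had such a probe set, of 18193 genes on the array, and all 40 were bright enough to test, as were 11063 genes in total. Chaf1a was not analysed here. The RNA came from the dissected ventricular and subventricular zones of the rostral medial ganglionic eminence (MGE), or from primary neuronal cultures made from these zones. The MGE is a ventral forebrain germinal region of the mouse embryo that gives rise to cortical interneurons. The embryos were at embryonic day E15.5. They were Dlx1/2 mutant (2 arrays of tissue, 1 array of primary neuronal culture) or wild-type (WT, 1 array of tissue, 1 array of primary neuronal culture). Dlx1 and Dlx2 are neighbouring homeodomain transcription factor genes needed for interneuron differentiation and migration. The labels give neither the mutant allele nor the strain, the days in culture, or whether embryos were pooled. The title of the WT tissue array carries an incomplete genotype mark, and it is called WT here after its description. Whether the pair of mutant tissue arrays stands for different embryos is not stated, so p-values rest on a spread between arrays that may be technical.

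In late mitosis and G1, the origin recognition complex, Cdc6 and Cdt1 load the MCM helicase onto DNA. At the start of S phase, cyclin E with Cdk2 and the kinase Cdc7 help to switch this helicase on, with Cdc45, the GINS complex and Mcm10 as partners. Primase and the polymerases then copy the strands with the sliding clamp Pcna. Most of these genes are transcribed at the G1/S transition under E2F factors, so in a tissue their RNA is high where many cells are cycling. In the germinal zones of the ganglionic eminences, ventricular and subventricular progenitors divide next to newborn neurons that have left the cycle.

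Array medians of the deposited signal ranged from 26.2 to 29.8, and the arrays were quantile normalized, so all signals below are normalized signals in linear units unless log2 is named. The SD of the difference between the 2 mutant tissue arrays was 0.324 (log2) over the genes tested and 0.157 over the 40 replication genes. Dlx1 lay at the floor (5.15) in all 3 mutant arrays, against 3195 in WT tissue and 602 in WT culture. Dlx2 read 18.6 and 12.2 in mutant tissue against 1083 in WT tissue, and 22.2 in mutant culture against 340 in WT culture. As a check of the dissection, 6 MGE markers were tested, of which 2 rose and 2 fell in mutant tissue (range −3.24 to 0.71). All 6 were lower in mutant culture than in mutant tissue (limma, adjusted p below 0.05, median −2.18), as were 21.8% of all genes tested. All 6 were also lower in WT culture than in WT tissue (median −1.93, no test), as were 50.1% of all genes tested. Among them, the MGE factor gene Lhx6 read 894 and 936 in mutant tissue against 1332 in WT tissue, and 383 in mutant culture against 900 in WT culture. Nkx2-1, which specifies the MGE, was dim: 59.8 and 75.3 in mutant tissue against 41.1 in WT tissue, and 12.4 in mutant culture against 17.0 in WT culture, where the filter for testing lay at a mean signal of 27.8.

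Replication genes were lower in mutant tissue than in WT tissue, across nearly every step of the process. Of the 40 genes, 34 fell and 0 rose (limma, Benjamini-Hochberg adjusted p below 0.05), where 6.70% of all genes tested fell and 8.59% rose. Their median difference was −0.77 (log2, mutant minus WT) and ranged from −1.28 to −0.15, beside 0.00 over all genes tested. Both mutant tissue arrays lay below WT tissue for 40 of 40 genes, as for 40.2% of all genes tested. In culture the same genes showed little difference, with a median of 0.07 between 1 mutant and 1 WT array. The summed signal of the 40 genes was 30746 and 30208 in mutant tissue against 46991 in WT tissue, and 36124 in mutant culture against 33607 in WT culture. In bulk RNA, fewer cells in S phase and less of these RNAs per cell cannot be told apart. The 34 calls rest on a single WT tissue array and on a variance prior that follows signal intensity: 0 replication genes were called lower without that trend, 0 without the filter on dim genes and 0 with the floor at the 40th percentile, while the median stayed at −0.77.

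**Figure D1:**
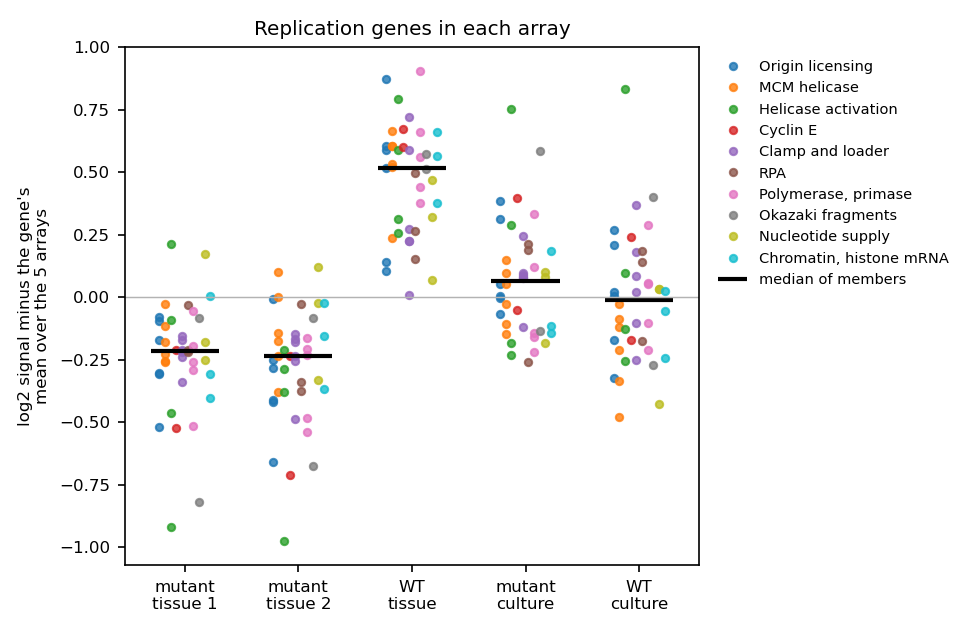
Log2 signal of each of the 40 replication genes minus that gene's own mean over the 5 arrays, by array, with colours for the steps of replication and black bars for the median. The medians were −0.22 and −0.24 in the mutant tissue arrays, 0.52 in WT tissue, 0.07 in mutant culture and −0.01 in WT culture, so the WT tissue array stands above the other 4.

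The plot of centred signals shows that WT tissue stood above the other 4 arrays together. WT tissue was the highest of the 5 arrays for 34 of 40 genes (22.2% of all genes tested). Both mutant tissue arrays lay below the other 3 arrays for 26 of 40 (18.7% of all genes tested). The gene with the greatest spread over arrays was Gins2, which was high in both cultures.

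Since E2F factors are the known regulators of this gene class and its members were low together in mutant tissue, promoter sequences were searched for E2F words. RefSeq promoters (GRCm38.p6, 250 bases before to 50 bases after a start) were found for 32 of the 40 genes. The words searched on both strands were TTTCCCGC, TTTCGCGC, TTTGCCGC and TTTGGCGC, which can overlap each other. At least 1 such word was found for 12 of 32 replication genes (37.5%), against 704 of 27025 genes with a promoter in the table (2.6%). Median GC content was 59.8% in the windows of the replication genes and 52.7% in all windows. For the G2 and mitosis genes, whose windows had a median GC content of 59%, the count was 1 of 31. It was 6 of 14 for E2F and pocket protein genes and 13 of 44 for further replication genes outside the list. For G1 cyclins, Cdks and Cdk inhibitors it was 3 of 13, for checkpoint and repair genes 3 of 16, and for postmitotic neuron markers 0 of 9. The E2F words were thus not particular to the replication genes of the list. CCAAT, another word common in cell cycle promoters, was found for 22 of 32 replication genes, 24 of 31 G2 and mitosis genes and 41.1% of all genes. In the other lists CCAAT was found for 9 of 13 G1 genes, 6 of 9 postmitotic neuron markers and 9 of 16 checkpoint and repair genes. It was found for 7 of 14 E2F and pocket protein genes and 19 of 44 further replication genes. Such a match is only a run of letters, not a measured binding site.

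The promoters of the 4 MCM helicase genes with an E2F word, and that of the helicase loader gene Cdc6, are printed because these genes fell in mutant tissue and act at a single step. They are Mcm3 (chr1:20820263-20820562, minus strand), Mcm5 (chr8:75109259-75109558, plus strand), Mcm6 (chr1:128359656-128359955, minus strand), Mcm7 (chr5:138171834-138172133, minus strand) and Cdc6 (chr11:98907901-98908200, plus strand). Each runs 5′ to 3′ along the gene's strand, with E2F words in capitals.
Mcm3: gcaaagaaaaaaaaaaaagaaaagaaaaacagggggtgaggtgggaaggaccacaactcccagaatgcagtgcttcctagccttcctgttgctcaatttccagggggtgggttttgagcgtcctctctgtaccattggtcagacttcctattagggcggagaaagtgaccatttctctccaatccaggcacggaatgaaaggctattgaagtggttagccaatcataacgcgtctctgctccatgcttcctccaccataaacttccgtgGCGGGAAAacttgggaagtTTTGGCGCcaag
Mcm5: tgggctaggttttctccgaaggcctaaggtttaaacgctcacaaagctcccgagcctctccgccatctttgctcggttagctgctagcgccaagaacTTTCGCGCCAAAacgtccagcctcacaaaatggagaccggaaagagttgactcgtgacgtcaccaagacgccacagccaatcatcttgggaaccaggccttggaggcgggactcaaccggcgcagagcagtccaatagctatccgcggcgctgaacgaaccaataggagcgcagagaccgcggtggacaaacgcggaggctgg
Mcm6: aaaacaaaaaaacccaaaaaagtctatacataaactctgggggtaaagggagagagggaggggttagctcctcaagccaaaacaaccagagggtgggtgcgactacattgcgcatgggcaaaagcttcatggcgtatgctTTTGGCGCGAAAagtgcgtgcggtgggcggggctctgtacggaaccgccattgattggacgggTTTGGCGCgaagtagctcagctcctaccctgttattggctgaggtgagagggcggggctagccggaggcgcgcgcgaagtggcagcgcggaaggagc
Mcm7: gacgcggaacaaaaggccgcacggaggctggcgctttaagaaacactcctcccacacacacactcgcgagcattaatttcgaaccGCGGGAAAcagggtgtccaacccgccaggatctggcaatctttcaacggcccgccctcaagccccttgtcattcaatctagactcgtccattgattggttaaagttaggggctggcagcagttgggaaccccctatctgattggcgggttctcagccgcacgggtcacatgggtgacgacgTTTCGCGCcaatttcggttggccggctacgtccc
Cdc6: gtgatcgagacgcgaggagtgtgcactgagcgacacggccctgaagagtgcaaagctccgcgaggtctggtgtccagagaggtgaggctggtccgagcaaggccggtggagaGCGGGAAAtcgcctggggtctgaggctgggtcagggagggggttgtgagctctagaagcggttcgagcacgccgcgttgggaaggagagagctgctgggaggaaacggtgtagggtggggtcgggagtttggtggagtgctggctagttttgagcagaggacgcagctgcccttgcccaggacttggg
In Mcm5 and Mcm6 a pair of words on opposite strands overlaps, at −153 and −149 and at −110 and −106 bases from the start. Mcm6 has another at −47, and Mcm7 has words at −165 and 16. The 12 genes with a word had a median tissue difference of −0.80, and 11 of them fell, and the 20 genes without one had a median of −0.54, and 15 fell. Genes with no promoter found are outside this split. Among them are Pole (−1.28), Gins2 (−1.26), Ccne2 (−1.22) and Gmnn (−1.18), and also Mcm4 and Rfc2 (−0.42 each). Whether genes with and without a word differ was not tested.

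Among the 6 genes of origin licensing, 4 fell in mutant tissue. Gmnn, whose product geminin blocks Cdt1 once S phase has begun, read 616 and 559 in mutant tissue against 1328 in WT tissue, and 1151 in mutant culture against 1019 in WT culture. It fell 2.26-fold in mutant tissue (log2 −1.18 ± 0.11 SE, adjusted p = 2.49e-05). Mutant tissue was thus low by itself, with both cultures near WT tissue. Cdt1, which brings the helicase to origins, read 734 and 636 in mutant tissue against 1178 in WT tissue, and 739 in mutant culture against 689 in WT culture. Its fall in tissue was 1.72-fold (−0.79 ± 0.11, adjusted p = 0.000565). For Cdt1, unlike Gmnn, both cultures lay with mutant tissue rather than WT tissue. Cdc6, which loads the helicase together with Cdt1, fell by 1.15 ± 0.16 in tissue (adjusted p = 0.000416), and Orc6 by 0.50 ± 0.11 (adjusted p = 0.0116). The subunit gene Orc2 read 202 and 215 in mutant tissue against 232 in WT tissue, and 215 in mutant culture against 217 in WT culture. Its tissue difference was −0.15 ± 0.16 (adjusted p = 0.565), the smallest of the 40 genes. Orc1, a dim gene at 23.5 to 44.9 over the 5 arrays, differed by −0.81 ± 0.44 (adjusted p = 0.25).

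All 6 genes of the MCM helicase ring (Mcm2 to Mcm7) fell in mutant tissue, by 0.42 to 0.98 on the log2 scale. Mcm5 read 1266 and 1164 in mutant tissue against 2400 in WT tissue, and 1620 in mutant culture against 1392 in WT culture. Its fall in tissue was 1.98-fold (−0.98 ± 0.09, adjusted p = 2.49e-05). Mcm2 read 432 and 469 in mutant tissue against 712 in WT tissue, and 423 in mutant culture against 371 in WT culture. The 4 arrays other than WT tissue thus lay close together for this subunit, and the fall in tissue was 1.58-fold (−0.66 ± 0.12, adjusted p = 0.00243). Mcm4 read 723 and 725 in mutant tissue against 967 in WT tissue, and 909 in mutant culture against 804 in WT culture. It had the smallest fall of the ring, 1.34-fold (−0.42 ± 0.10, adjusted p = 0.0147). Of the 6 genes, 6 were higher in mutant than in WT culture, by 0.06 to 0.37 (log2), with no replicate in either group.

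Among the factors that activate the helicase, 3 of 4 genes fell in mutant tissue. The GINS subunit gene Gins2 read 189 and 181 in mutant tissue against 442 in WT tissue, and 601 in mutant culture against 635 in WT culture. Its fall in tissue was 2.39-fold (−1.26 ± 0.15, adjusted p = 0.000151), and both cultures lay above every tissue array. The other GINS subunit gene, Gins1, fell by 0.94 ± 0.11 and Cdc45 by 0.97 ± 0.19 (adjusted p = 0.000144 and 0.00505). Mcm10, which stabilizes the active helicase, read 124 and 82.6 in mutant tissue against 128 in WT tissue, and 94.4 in mutant culture against 115 in WT culture. The mutant tissue arrays differed from each other more for Mcm10 than for any other replication gene (0.59 log2), and its difference of −0.34 ± 0.26 did not pass (adjusted p = 0.428). The cyclin E genes, whose proteins activate Cdk2 at the start of S phase, both fell. Ccne1 read 102 and 101 in mutant tissue against 189 in WT tissue, and 114 in mutant culture against 105 in WT culture (tissue −0.90 ± 0.20, adjusted p = 0.0101). Ccne2 read 275 and 242 in mutant tissue against 600 in WT tissue, and 521 in mutant culture against 468 in WT culture (tissue −1.22 ± 0.14, adjusted p = 0.000122). Ccne2 in culture thus lay nearer to WT tissue, and Ccne1, on the probe set used, nearer to mutant tissue. A further, dimmer Ccne1 probe set read 67.4 in mutant culture and 107 in WT culture. It read 56.2 and 61.8 in mutant tissue and 132 in WT tissue, so there WT culture lay nearer to WT tissue. The genotype difference in culture was −0.67 on that probe set and 0.12 on the one used.

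The clamp Pcna and 4 of the 5 genes of its loader, replication factor C, fell in mutant tissue. Pcna read 6902 and 6848 in mutant tissue against 8993 in WT tissue, and 8107 in mutant culture against 7797 in WT culture. After quantile normalization the fall was 1.31-fold (−0.39 ± 0.06, adjusted p = 0.00119), with the mutant tissue arrays close together. The deposited Pcna signals were 6873 and 6197 in mutant tissue against 10025 in WT tissue. Before normalization the fall and the gap between the mutant tissue arrays were thus larger. Rfc4, a small loader subunit gene, read 930 and 924 in mutant tissue against 1724 in WT tissue, and 964 in mutant culture against 880 in WT culture. It fell 1.86-fold in tissue (−0.89 ± 0.09, adjusted p = 5.15e-05). The large subunit gene Rfc1 read 87.6 and 85.5 in mutant tissue against 103 in WT tissue, and 109 in mutant culture against 132 in WT culture. It differed by −0.25 ± 0.23 in tissue (adjusted p = 0.53), and in culture by −0.27. All 3 genes of replication protein A, which coats unwound strands, fell. Rpa1, the large subunit gene, read 1380 and 1265 in mutant tissue against 1777 in WT tissue, and 1854 in mutant culture against 1817 in WT culture (tissue −0.43 ± 0.09, adjusted p = 0.00745). Rpa2 read 381 and 342 in mutant tissue against 533 in WT tissue, and 506 in mutant culture against 489 in WT culture (tissue −0.56 ± 0.13, adjusted p = 0.0118). For both subunits mutant tissue was low and the other 3 arrays lay close together.

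All 5 polymerase and primase genes fell in mutant tissue. Pole, the catalytic subunit gene of the leading strand polymerase, read 76.9 and 60.6 in mutant tissue against 165 in WT tissue, and 75.6 in mutant culture against 91.6 in WT culture. Its fall in tissue, 2.42-fold (−1.28 ± 0.25, adjusted p = 0.00457), was the largest of the 40 genes. Pola1, the catalytic subunit gene of the polymerase that extends primers, read 152 and 167 in mutant tissue against 253 in WT tissue, and 203 in mutant culture against 173 in WT culture. It had the smallest fall of this group (−0.67 ± 0.17, adjusted p = 0.0202). The primase genes Prim1 and Prim2 fell by 0.80 ± 0.10 and 0.88 ± 0.14. Fen1, the nuclease that trims Okazaki fragments, read 265 and 293 in mutant tissue against 667 in WT tissue, and 702 in mutant culture against 617 in WT culture (tissue −1.26 ± 0.13, adjusted p = 6.59e-05). Lig1, the ligase that joins the fragments, read 257 in each mutant tissue array against 404 in WT tissue, and 248 in mutant culture against 225 in WT culture (tissue −0.66 ± 0.14, adjusted p = 0.00715). On the probe sets used, both cultures were thus close to WT tissue for Fen1 and close to mutant tissue for Lig1. A further Fen1 probe set read 267 and 289 in mutant tissue against 513 in WT tissue, a difference of −0.88. It read 421 in mutant culture and 405 in WT culture, so there both cultures lay between mutant and WT tissue.

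Nucleotide supply was the group with the fewest falls, 1 of 3. Rrm2, the S phase subunit gene of ribonucleotide reductase, read 3052 and 2887 in mutant tissue against 5023 in WT tissue, and 3839 in mutant culture against 3716 in WT culture (tissue −0.76 ± 0.07, adjusted p = 3.8e-05). Its partner subunit gene Rrm1, whose protein is long-lived, differed by −0.17 ± 0.09 (adjusted p = 0.24), although another probe set of Rrm1 differed by −0.48. Tyms, the thymidylate synthase gene, was dim on its probe set, with 26.6 and 29.6 in mutant tissue against 31.6 in WT tissue, and 32.3 in mutant culture against 30.9 in WT culture (tissue −0.17 ± 0.45, adjusted p = 0.843). Its 5 values lay close to the filter for dim genes. The 3 measured genes of chromatin assembly and histone RNA processing all fell. Chaf1b, a subunit gene of the histone chaperone CAF-1, read 166 and 170 in mutant tissue against 324 in WT tissue, and 249 in mutant culture against 223 in WT culture (tissue −0.95 ± 0.16, adjusted p = 0.00166). Slbp, which binds the stem-loop of histone mRNAs, read 1190 and 1167 in mutant tissue against 1543 in WT tissue, and 1097 in mutant culture against 1003 in WT culture (tissue −0.39 ± 0.09, adjusted p = 0.0109). Uhrf1, which guides maintenance DNA methylation, fell by 0.89 ± 0.14 (adjusted p = 0.00133).

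**Figure D2:**
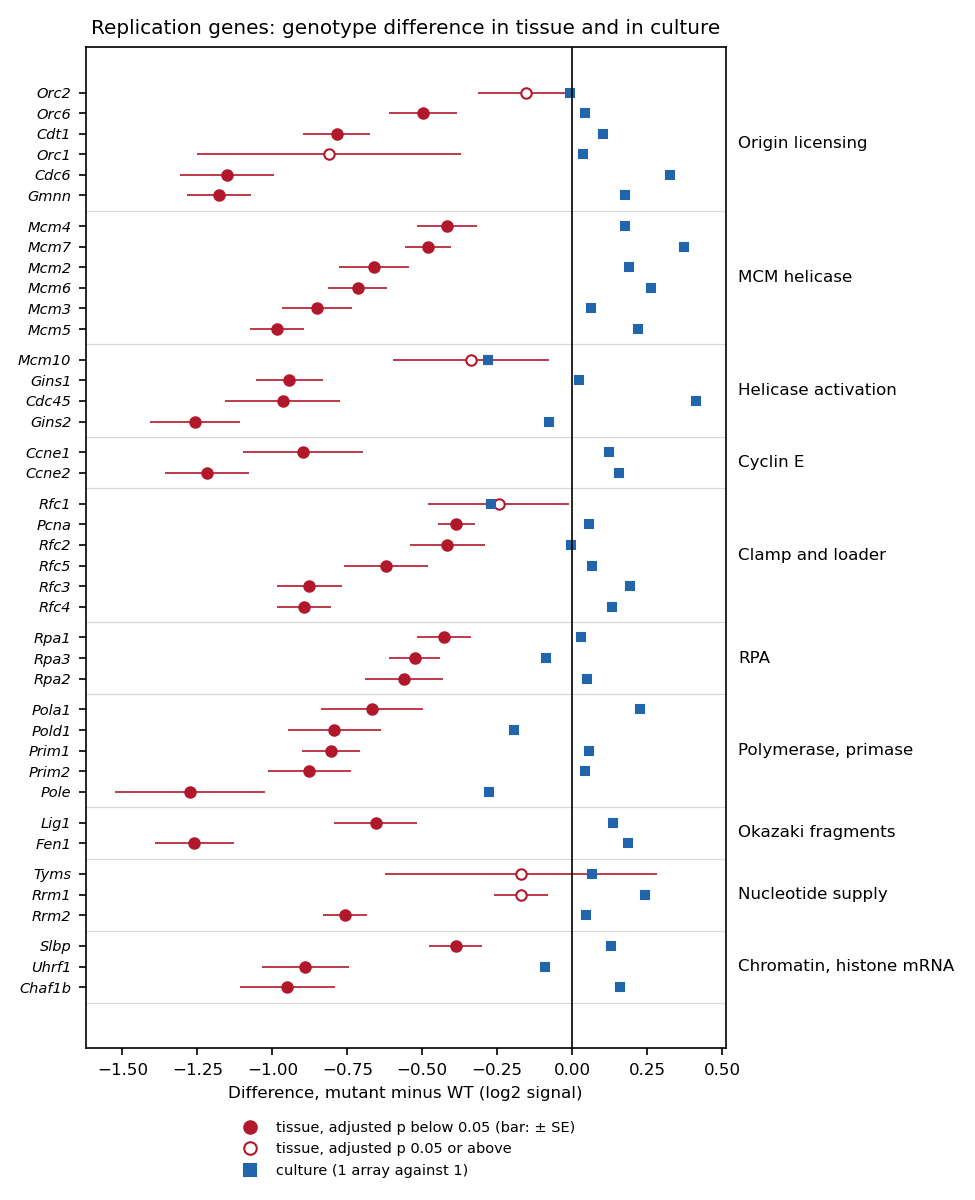
Genotype difference of each replication gene, mutant minus WT on the log2 scale, in tissue (circles with the SE of the limma fit, filled where the adjusted p is below 0.05) and in culture (squares, 1 array against 1). The tissue differences run from −1.28 to −0.15 and all lie left of 0, and the culture differences run from −0.28 to 0.41.

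The rule picks a single probe set per gene, and 25 of the 40 genes had at least 1 further probe set above the filter. Of these 35 further probe sets, 34 were lower in mutant than in WT tissue and 1 was higher. The exception was a dim probe set of Mcm5 that differed by 0.23, while the other further Mcm5 probe set differed by −0.98. A further probe set of Orc1 differed by −3.42. When all probe sets of a gene were averaged, 21 of 39 replication genes tested were called lower, 20 of them among the 34.

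In primary culture, 31 of 40 replication genes were higher in the mutant than in the WT array (51.7% of all genes tested), and 9 were lower. The differences ran from −0.28 (Mcm10 and Pole) to 0.41 (Cdc45), and 0 genes differed by 2-fold or more in either direction, as did 1.85% of all genes tested upwards and 1.83% downwards. With 1 array against 1 there is no replicate check of these values. The bars of 8 genes show both preparations side by side.

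**Figure D3:**
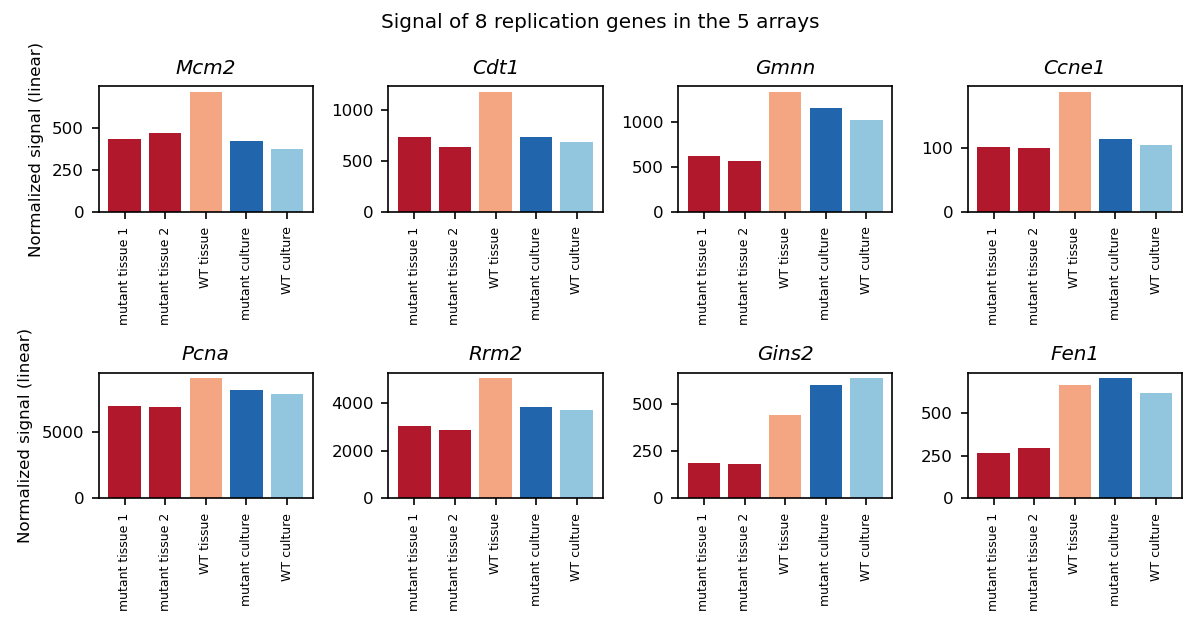
Normalized signal (linear axis from 0) of 8 replication genes in each array, 1 bar per array with no error bar since each bar is 1 measurement. For Gmnn the bars read 616 and 559 in mutant tissue, 1328 in WT tissue, 1151 in mutant culture and 1019 in WT culture, and for Gins2 both cultures lie above all tissue arrays.

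The genotype difference itself differed between preparations. It was higher in culture than in tissue for 20 of 40 genes and lower for 0 (limma interaction, adjusted p below 0.05), where 2.21% of all genes tested were higher and 2.27% lower. The median of this difference of differences was 0.85 (log2), beside 0.00 over all genes tested. For Fen1 the genotype difference was 0.19 in culture and −1.26 in tissue, a difference of 1.45 ± 0.19 (adjusted p = 0.00413). On the further Fen1 probe set, which was not tested, it was 0.06 in culture and −0.88 in tissue, a difference of 0.94. For Cdc6 it was 0.33 in culture and −1.15 in tissue, a difference of 1.48 ± 0.24 (adjusted p = 0.0108), the largest of the list. By role the calls numbered 5 of 6 MCM helicase genes, 3 of 4 activation factors, 3 of 6 licensing genes, 3 of 6 clamp and loader genes, 2 of 5 polymerase and primase genes, and 0 of 3 replication protein A genes. Ccne2 was called (1.37 ± 0.20, adjusted p = 0.0065) and Ccne1 was not (1.02 ± 0.31, adjusted p = 0.107). The test uses the same 3 tissue arrays as the tissue comparison, so it does not add independent evidence of the fall in tissue. No replication gene was called with all probe sets averaged, without the intensity trend, without the filter on dim genes or with the floor at the 40th percentile (0 in each).

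The difference between culture and tissue had a median above 0 in mutants and below 0 in WT. In mutants, replication genes were higher in culture than in tissue for 16 of 40 and lower for 2 (limma, adjusted p below 0.05), where 21.6% of all genes tested were higher and 21.8% lower. These counts of 16 and 2 became 1 and 0 with no filter on dim genes and 6 and 0 with no intensity trend, and the lower calls numbered 1 with the deposited scaling, 1 with the floor at the 40th percentile and 0 with probe sets averaged. Gins2 read 601 in mutant culture against 189 and 181 in mutant tissue (1.70 ± 0.14, adjusted p = 7.82e-06). Fen1 read 702 in mutant culture against 265 and 293 in mutant tissue (1.33 ± 0.13, adjusted p = 2.15e-05). Its further probe set read 421 in mutant culture against 267 and 289 in mutant tissue. Ccne2 rose by 1.01 ± 0.14 (adjusted p = 0.000235). The 2 genes that fell were Rrm1 (−0.33 ± 0.09, adjusted p = 0.0127) and Rpa3, the small subunit gene of replication protein A (−0.23 ± 0.09, adjusted p = 0.0498). The median over the list was 0.26. Mutant culture lay above both mutant tissue arrays for 30 of 40 genes (44.1% of all genes tested). In WT, 36 of 40 genes were lower in culture than in tissue (50.1% of all genes tested), with a median of −0.54. Of these, 2 were at least 2-fold lower, Cdc6 (164 in WT culture against 375 in WT tissue) and Gins1 (476 in WT culture against 985 in WT tissue), and 6.78% of all genes tested were. At least 2-fold higher in WT culture were 0 of 40, and 9.73% of all genes tested. Gins2 was 1 of the 4 genes higher in WT culture (635 against 442 in WT tissue). These are single arrays, so no test was made in WT.

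Across both preparations in a single model, 0 of 40 replication genes were called in either direction (limma), where 0.814% of all genes tested were higher and 0.253% lower. An unadjusted limma p under 0.05 was found for 12 of the 40, all lower. Among all 11063 genes tested it was found for 1443, of which 536 were lower. The median difference was −0.39, which joins the tissue median of −0.77 with a culture median of 0.07. Pole had the largest difference in this model (−0.85 ± 0.27, adjusted p = 0.246), followed by Gins2 (−0.75 ± 0.24, adjusted p = 0.242).

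Further replication genes, outside the 41, fell in part in mutant tissue. Of 49 further replication genes tested, 24 fell and 1 rose in mutant tissue, with a median of −0.48. Dscc1, a subunit gene of an alternative clamp loader, read 162 and 164 in mutant tissue against 437 in WT tissue (−1.42 ± 0.15, adjusted p = 8.33e-05). Ticrr, which helps to load Cdc45, read 43.1 and 29.4 in mutant tissue against 85.2 in WT tissue (−1.26 ± 0.36, adjusted p = 0.0364). Top1, the topoisomerase gene that also serves transcription, rose by 0.38 ± 0.10 (adjusted p = 0.0176). In the interaction, 14 of these genes were called higher and 1 lower, among them Dscc1 (1.55 ± 0.22, adjusted p = 0.00562), Hells, a chromatin remodeler gene (1.40 ± 0.20, adjusted p = 0.00564), and Top1 (−0.71 ± 0.16, adjusted p = 0.0358).

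Of 17 E2F and pocket protein genes tested, 6 fell and 0 rose in mutant tissue (median −0.39). Among them E2f2, an activator of S phase genes, read 97.9 and 101 in mutant tissue against 184 in WT tissue (−0.88 ± 0.20, adjusted p = 0.0116). Rbl1, the pocket protein gene for p107 and itself an E2F target, read 330 and 334 in mutant tissue against 610 in WT tissue (−0.88 ± 0.12, adjusted p = 0.000522), and was the 1 gene of this list called in the interaction (1.04 ± 0.19, adjusted p = 0.0169). Of 19 checkpoint and repair genes, 6 fell and 0 rose, with the nuclease gene Exo1 (−1.13 ± 0.18, adjusted p = 0.00101) and the kinase gene Chek1 (−0.997 ± 0.14, adjusted p = 0.000408) in front. Palb2, a repair partner of Brca2, had the largest interaction of that list (2.72 ± 0.60, adjusted p = 0.0349), and Chek1 was the other call (1.31 ± 0.21, adjusted p = 0.00928). Palb2 read 55.6 in mutant culture against 13.2 in WT culture, and 46.7 and 36.5 in mutant tissue against 64.4 in WT tissue, so its lowest array was WT culture.

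Genes of later and earlier cycle phases were also among those that fell. Of 39 G2 and mitosis genes tested, 35 fell and 0 rose in mutant tissue (median −0.84), and the interaction called 27 higher and 0 lower. Cdc25c, a phosphatase gene of mitotic entry, read 141 and 137 in mutant tissue against 326 in WT tissue (−1.23 ± 0.17, adjusted p = 0.000431), with an interaction of 1.40 ± 0.24 (adjusted p = 0.0132). Nek2, a centrosome kinase gene, read 226 and 196 in mutant tissue against 491 in WT tissue (−1.22 ± 0.15, adjusted p = 0.000202), with an interaction of 1.71 ± 0.23 (adjusted p = 0.00429). Of 15 genes of G1 cyclins, Cdks and Cdk inhibitors, 7 fell and 1 rose in mutant tissue (median −0.37), and the interaction called 4 higher and 0 lower. Skp2, which marks the inhibitor p27 for destruction, fell (549 and 616 in mutant tissue against 1105 in WT tissue, −0.93 ± 0.11, adjusted p = 0.000162), as did the D-type cyclin gene Ccnd2 (2907 and 3179 in mutant tissue against 4921 in WT tissue, −0.69 ± 0.08, adjusted p = 9.9e-05). Cdkn1a, the gene of the Cdk inhibitor p21, rose (162 and 161 in mutant tissue against 89.2 in WT tissue, 0.85 ± 0.20, adjusted p = 0.0113). Among the 4 genes of that list called in the interaction, Skp2 and the inhibitor gene Cdkn2c had the largest values (1.03 ± 0.17, adjusted p = 0.0108, and 0.83 ± 0.19, adjusted p = 0.0439). No test was made of whether the replication genes differ from these lists.

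**Figure D4:**
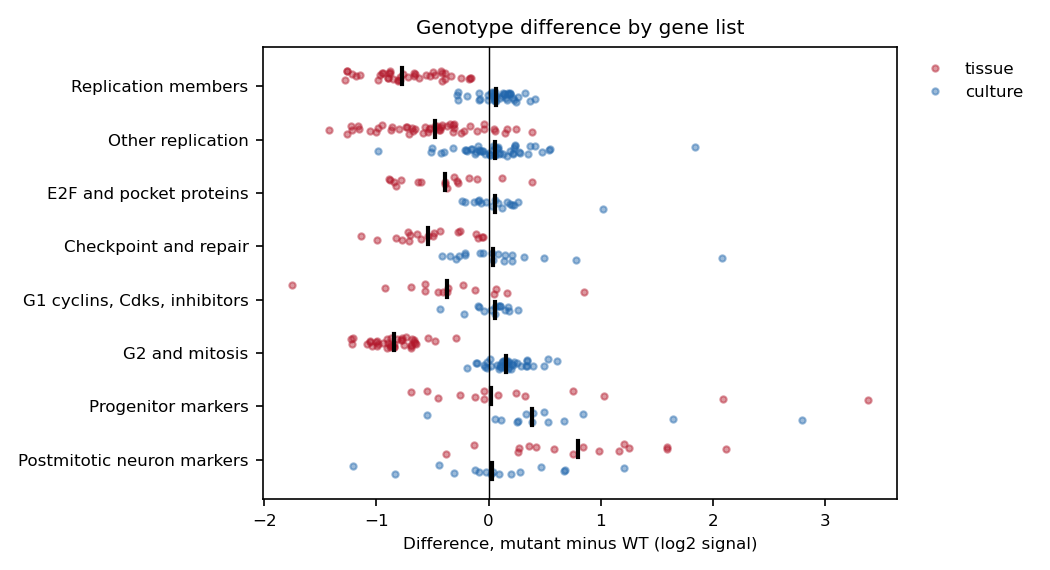
Genotype difference (log2, mutant minus WT) of every tested gene in each list, in tissue (red) and in culture (blue), with black ticks for medians. In tissue the medians were −0.77 for the replication genes, −0.84 for G2 and mitosis genes and 0.80 for postmitotic neuron markers, and in culture 0.07, 0.16 and 0.03.

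Most markers of postmitotic neurons rose in mutant tissue, while progenitor markers had a median difference of 0.02. The part of cell type in the tissue result was not tested. Of 16 markers of postmitotic neurons, 13 rose and 1 fell in mutant tissue (median 0.80), 0 lay at the floor in any array, and their summed signal was 27891 and 28859 in mutant tissue against 21079 in WT tissue. The neuronal nuclear protein gene Rbfox3 read 379 and 353 in mutant tissue against 84.2 in WT tissue (2.12, adjusted p = 4.41e-06). In culture the sum of these markers was 22525 in the mutant and 22171 in WT. Of 14 progenitor markers, 6 rose and 1 fell in mutant tissue (median 0.02), with sums of 37395 and 37822 against 33416 in WT tissue, and 38930 in mutant culture against 32264 in WT culture. The 1 that fell was Ccnd2, which is also on the G1 list. The general progenitor gene Sox2 read 6400 and 6959 in mutant tissue against 5622 in WT tissue (0.25, adjusted p = 0.034).

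Markers of other cells differed between culture and tissue, between genotypes, or both. The 4 red blood cell markers tested summed to 25.4 in mutant culture and 25.7 in WT culture. In tissue they summed to 9519 and 9454 in the mutant and 10501 in WT. Of the 5 red blood cell markers measured, 4 lay at the floor in mutant culture and 3 in WT culture. The 6 pericyte and mesenchyme markers tested ran the other way, with sums of 20677 in mutant culture and 21379 in WT culture. Their sums in tissue were 801 and 852 in the mutant and 859 in WT. Of the endothelial markers, 0 of 4 tested were called between genotypes in tissue, and of the microglial markers 0 of 6. Of 7 astrocyte markers tested 4 rose in mutant tissue (median 0.69). Sums over these 7 were 4402 and 4246 in mutant tissue against 2891 in WT tissue, and 5860 in mutant culture against 3840 in WT culture. Of 5 oligodendrocyte markers tested 4 rose (median 1.49). Sums over these 5 were 2172 and 2104 in mutant tissue against 970 in WT tissue, and 1643 in mutant culture against 1133 in WT culture. Of 4 red blood cell markers tested 1 fell, of 6 pericyte and mesenchyme markers 1 rose, of 3 choroid plexus markers 1 rose, and of 2 pallial markers 1 rose.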

How the data were processed

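The authors deposited intensity values on a linear scale, 1 per probe set, for 45101 probe sets on 5 Affymetrix mouse arrays. The values show that each array was scaled to the same mean after trimming 2% at each end (150.0). Their software was not given in the sources used here.

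The arrays were quantile normalized, because array medians differed by 0.183 (log2), over a limit of 0.1. Values below the pooled 20th percentile (5.15) were raised to that floor before taking log2. Control probe sets (64) did not enter. Of the others, 34945 had 1 symbol in the platform annotation, 932 several and 9160 none. The brightest probe set stood for each of 18193 genes. The 11063 genes with a mean above the pooled median (4.80 log2) were tested.

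Models were fitted with limma (version 3.58.1, R 4.3.3), whose variance prior followed signal intensity, with Benjamini-Hochberg adjustment over all genes tested. The tissue fit used 3 arrays (1 residual and 10.89 prior degrees of freedom), the fit of culture against tissue in mutants 3 arrays (1 and 9.28), the interaction 5 arrays in 4 groups (1 and 8.57), and the fit across both preparations 5 arrays with preparation as a covariate (2 and 5.95). Groups with 1 array were assumed to vary like mutant tissue. No list was tested. Precision is limited by how few arrays there are. In simulated arrays whose spread was made to follow intensity, the fits returned the size of known differences on average, which does not test that assumption about the spread.

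The 41 genes and all other lists were chosen with earlier results of these data known. Values of every array are given for the genes with the highest and lowest tissue difference in each role and for Pcna, Mcm2, Cdt1, Gmnn, Ccne1 and Rrm2. From the other cell cycle lists, the 2 largest calls in each direction in tissue and in the interaction are named. Gene and marker values outside this rule, and the promoters printed, were chosen after their values were seen. Alternatives covered the scaling, the floor, the filter, the probe set rule, the variance prior and leaving out each mutant tissue array.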

Additional observations from a re-analysis of the deposited data

Results flagged for a closer look

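For 20 of the 40 replication genes the genotype difference differed between the 2 preparations by the limma interaction test. Among the genes given by array, the genotype difference in culture minus that in tissue (log2) was 1.45 for Fen1, 1.37 for Ccne2, 1.35 for Gmnn, 1.20 for Mcm5, 1.18 for Gins2, 1.11 for Chaf1b, 1.03 for Rfc4, 0.89 for Cdt1, 0.85 for Mcm2, 0.81 for Rrm2 and 0.44 for Pcna. Each of these 11 genes was lower in mutant tissue, and 10 of them were higher in mutant culture, with Gins2 lower there. The call of Pcna was lost with the deposited scaling, where the other 19 remained, and all 20 were lost under 4 other settings given below. The test rests on single arrays in 3 of the 4 groups.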

How the results depend on the processing

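With the deposited scaling, or the floor at the 10th percentile, or the filter at the 60th percentile, 34 replication genes were called lower in tissue and 22, 21 and 27 were called in the interaction, against 34 and 20 as reported, with Pcna the 1 interaction call lost with the deposited scaling. The deposited scaling moved the median of all genes by no more than 0.05. Calls of lower genes in tissue and of higher genes in the interaction both came to 0 with the floor at the 40th percentile, with no filter on dim genes and with no intensity trend. With all probe sets averaged they came to 21 and 0, against 34 and 20. The cause was not tested, but prior degrees of freedom in tissue were 2.34, 0.74, 2.36 and 4.56 in these 4 settings, against 10.89. Over all genes tested, lower calls in tissue numbered 0, 378, 2 and 220, against 741. For culture against tissue in mutants, 16 higher and 2 lower genes became 1 and 0 with no filter and 6 and 0 with no trend. The lower genes numbered 1 with the deposited scaling, 1 with the floor at the 40th percentile and 0 with probe sets averaged. In WT, genes at least 2-fold lower in culture numbered 4 with probe sets averaged, against 2. Averaging also moved the median difference to −0.67 in tissue and to −0.44 for culture against tissue in WT. Without mutant tissue replicate 1 or 2 the median was −0.79 and −0.73 in tissue and −0.36 and −0.32 across both preparations, where 0 genes were called. The sign turned for Orc2 (−0.0298, deposited scaling) and Mcm2 (0.033, probe sets averaged) in culture against tissue in mutants, and with probe sets averaged for Mcm10 (−0.54), Rfc1 (0.42) and Pola1 (−0.062) in the interaction, none of which was called as reported. No tissue difference of a gene given by array changed sign. Without either mutant tissue array the tissue fit, the interaction and culture against tissue in mutants have no residual degrees of freedom, so these are values with no test. No paired analysis was possible because the groups compared share fewer than 2 replicate numbers.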
